A study of Mus musculus with 6 samples.

Results

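Genes through which interferon makes a cell resistant to viruses were followed in mouse cancer-associated fibroblasts (CAFs) after silencing of Stat3. The set is a list of 40 antiviral effector genes, taken by symbol from the 24015 symbols of the count table. It leaves out other interferon-induced families: the guanylate-binding and immunity-related GTPases, the 2-5A synthetases, the nucleic acid sensors, the interferon regulatory factors and the antigen processing genes. All 40 symbols had a row, and all 40 were among the 13284 genes that passed the filter on low counts. The 6 samples were primary CAFs, the fibroblasts of tumour stroma, grown from the mammary tumours of BalbC mice with the NeuT transgene. NeuT is an activated rat Her2/neu transgene that gives mammary carcinomas. The cells had received nanoparticles, 1 ug/mL for 72 hours, that carried control siRNA in 3 samples and siRNA against Stat3 in the other 3, and poly(A) RNA was sequenced to find genes that depend on STAT3. No sample without nanoparticles and siRNA is among the 6, so all of the levels are those of cells that received both. Samples are numbered 1 to 3 in each group. Those that share a number departed from their group means in the same genes, and are called a pair.

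Type I interferons bind the receptor IFNAR, whose kinases JAK1 and TYK2 phosphorylate STAT proteins. A complex that holds STAT2 and IRF9 then binds interferon-stimulated response elements (ISREs) near the genes it induces. The products act at many steps of a viral life cycle: they bind foreign RNA, hydrolyse nucleotides, hold virions at the membrane, block membrane fusion, or attach the ubiquitin-like protein ISG15 to other proteins. STAT3, the target of the siRNA, is activated mainly by cytokines of the interleukin 6 family and is also phosphorylated after interferon. Fibroblasts express the interferon receptors and make interferon beta when they sense foreign nucleic acid.

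Levels are given as CPM (read counts over the library total, scaled by TMM factors). A pair change is the log2 ratio of the anti-Stat3 to the control level within a pair, computed with a prior count of 2, which makes the changes of low genes smaller. Total counts ran from 12998168 to 18683852 per sample. Stat3 had 220.4, 359 and 405 CPM in control samples 1 to 3 and 34.7, 81.9 and 78.9 CPM in anti-Stat3 samples 1 to 3, so that the groups did not overlap for the targeted transcript. Its change was -2.33 ± 0.41 (SE) in the quasi-likelihood test of edgeR with the group alone, with an adjusted p of 1 across all genes, and -2.38 ± 0.16 (SE) in DESeq2 with the block of pairs (adjusted p = 1.2e-48, and from that value to 1 over 21 fits). Most fibroblast markers were abundant in all samples. Over all 12 genes they summed to 26489, 68588 and 71732 CPM in control samples 1 to 3. In anti-Stat3 samples 1 to 3 they summed to 30884, 46487 and 56389 CPM. Lum and Fap were low in pair 1, with 4.67 and 4.19 CPM in control sample 1 and 7.58 and 3.13 CPM in anti-Stat3 sample 1. Fap had at most 29.4 CPM in any sample. The sum was lowest in pair 1, as were the collagen genes Col1a1, Col1a2 and Col3a1, but not every marker was. Postn was highest in pair 1 within each group, at 4112 CPM in control sample 1 and 4682 CPM in anti-Stat3 sample 1.

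**Figure D1:**
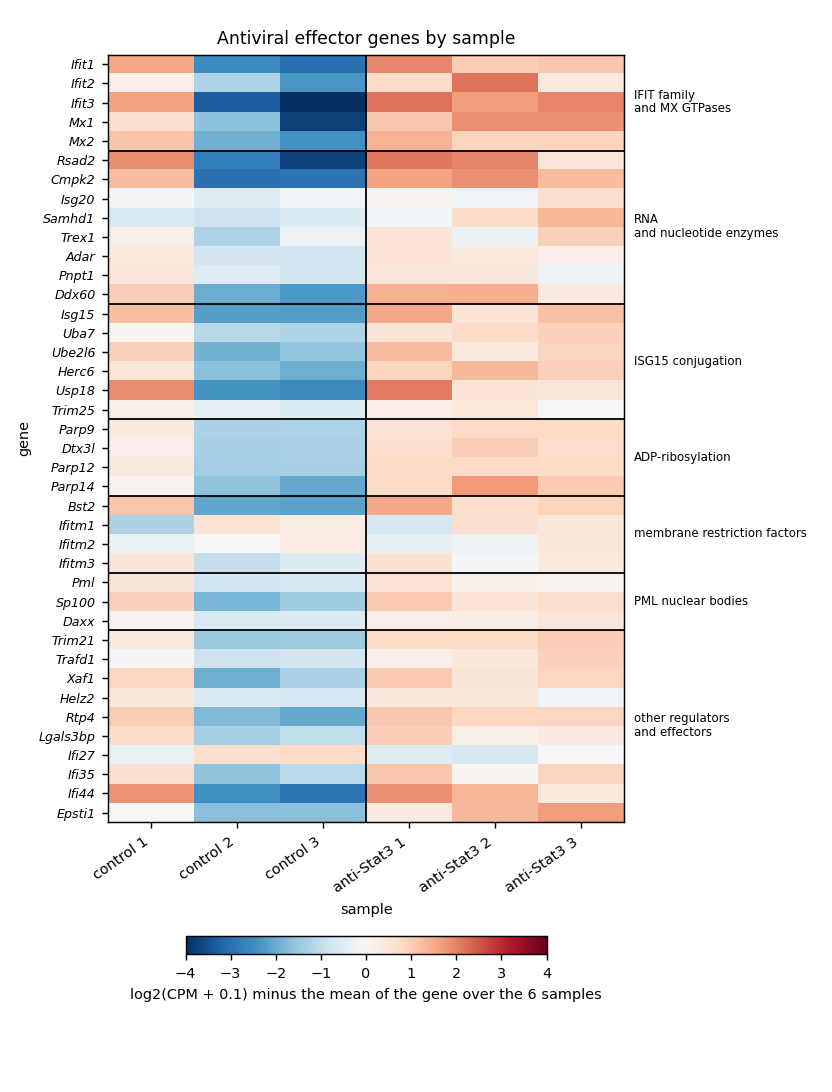
Heat map of the 40 antiviral effector genes (rows, by role) in the 6 samples (columns), coloured by log2(CPM + 0.1) minus the mean of the gene over all samples. Control samples 2 and 3 are the low columns, while control sample 1 and the 3 anti-Stat3 samples are high for most genes.

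The antiviral effectors were higher after anti-Stat3 siRNA in nearly every comparison within a pair, and the size of the difference depended on the pair. Of the 40 genes, 38 were higher in all 3 pairs, against 17.3% of all genes tested. Ifi27 was lower in all 3, against 16.4%, and Ifitm2 moved both ways. The median pair change of the members was 0.28 in pair 1, 2.28 in pair 2 and 2.13 in pair 3, where the median of all genes was 0.0011, 0 and 0.01. In pair 1 a single member, Parp14, exceeded 1.5-fold (2.85% of all genes did), whereas 29 members were over 2-fold higher in both of the other pairs (1.68% of all genes). By role, the medians of pairs 1 to 3 were 0.39, 3.42 and 4.06 for the IFIT and MX genes, 0.28, 2.53 and 2.68 for the ISG15 pathway, 0.37, 2.25 and 2.05 for ADP-ribosylation, 0.29, 1.36 and 1.52 for RNA and nucleotide enzymes, and 0.14, 1.01 and 1.02 for the PML bodies. The medians of the membrane factors were 0.26, 0.50 and 0.56, the smallest of the role groups in pairs 2 and 3 but not in pair 1.

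For most members the control samples differed widely between pairs. Control sample 1 had more than 2-fold the level of both other controls for 31 of the 40 members, against 4.77% of all genes. For Ifit3 it had 38.99 times the mean of the other controls, for Rsad2 33.6 times, for Ifi44 21.8 times and for Usp18 20.6 times. The 4 remaining samples differed less: anti-Stat3 sample 1 was the highest of all 6 samples for 19 members (12.5% of all genes), and the mean z-score of the members was 0.60, 0.52 and 0.63 in the anti-Stat3 samples and 0.37, -1.08 and -1.04 in the controls. Groups did not overlap for 15 members, all higher after anti-Stat3 siRNA, against 2.45% of all genes in that direction and 2.23% in the other.

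**Figure D2:**
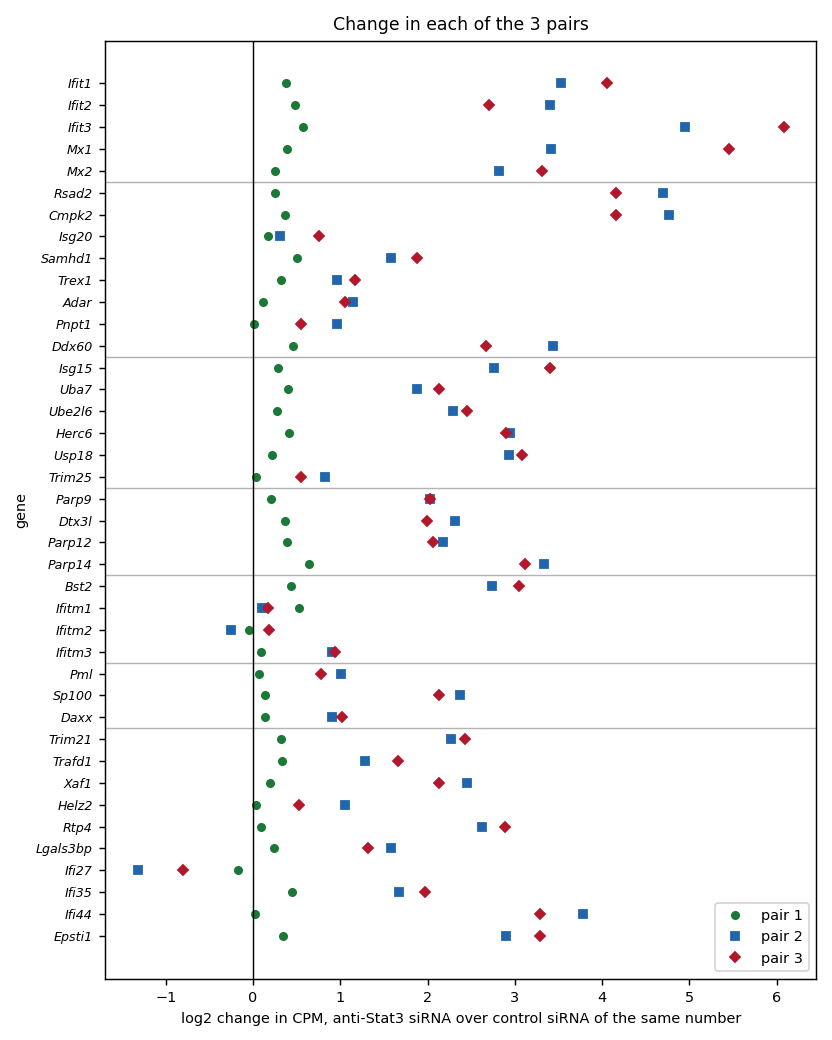
Log2 change in CPM of anti-Stat3 over control siRNA in each of the 3 pairs (points) for the 40 genes, grouped by role. Pair 1 lies between -0.18 and 0.64, and pairs 2 and 3 reach 4.95 and 6.09 in Ifit3.

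None of the members passed the main test, which had 3 samples per group. With the group alone, edgeR called 0 of the 40, as it called 0% of all genes, and 13 members had an unadjusted p under 0.05, against 1.77% of all genes. Its median log2 change was 1.16 over the members and -0.0028 over all genes. With the pair as a block, edgeR called 0 members (0.0602% of all genes), with 38 at an unadjusted p under 0.05 (10.8%). DESeq2 with the block called 9: Samhd1, Trafd1, Lgals3bp, Trex1, Epsti1, Adar, Ifitm3 and Daxx rose, against 0.873% of all genes, and Ifi27 fell, against 0.783%. Each of these 9 was called in 3 of 21 fits, and their highest adjusted p over the fits was 1. The count of calls depended on which pair was left out. With pair 1 left out, 36 members were called higher and Ifi27 lower in both tools, where edgeR called 3.02% and DESeq2 2.03% of all genes higher. With pair 2 or pair 3 left out, 0 members were called in either tool, where edgeR called 0.0225% and 0% and DESeq2 0.105% and 0.147% of all genes. Without control sample 1, edgeR with the group alone called 14 members, all higher (0.294% of all genes).

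Transcripts of macrophages moved with the pairs. Over 19 macrophage markers the summed level was 48.4, 1819 and 2518 CPM in the 3 controls, against 44.2, 1749 and 2905 CPM in the 3 anti-Stat3 samples, and 0 of the 19 were called in DESeq2 with the block. C1qa and Cx3cr1 were at 0 in control sample 1, and C1qb and C1qc were at 0 in anti-Stat3 sample 1. The pairs with many macrophage transcripts were the pairs with low members in the controls and large changes, and the part of these cells in the result was not tested. In bulk RNA, fewer cells of a type and less RNA per cell cannot be told apart. Epithelial or tumour markers, 16 genes, summed to 183, 927 and 89.1 CPM over controls 1 to 3. Over anti-Stat3 samples 1 to 3 they summed to 177, 943 and 92.7 CPM. The sum was highest in pair 2, and the part of these genes in the result was not tested either. Csn3 alone had 412 CPM in control sample 2 and 438 CPM in anti-Stat3 sample 2, and at most 8.98 CPM in the others. Not every marker followed the sum: Krt19 was lowest in pair 2 within each group, at 6.14 and 3.77 CPM. Wap and Csn2 were at 0 in all samples. Endothelial markers summed to between 5.95 and 39.3 CPM over 8 genes, of which 4 passed the filter. The sum was lowest in pair 1, as was Kdr (1.56 to 30.3 CPM). Tek, in contrast, was highest among the controls in control sample 1, at 2.71 CPM. Markers of plasmacytoid dendritic cells summed to between 114 and 217 CPM over 5 genes, of which 1 passed the filter. That gene, Tcf4, had 114 to 216 CPM and made up nearly all of the sum. Siglech was at 0 in all samples, and Ccr9, Klk1 and Ly6d had at most 0.265 CPM. T or NK cell markers summed to at most 0.614 CPM over 11 genes, and B cell markers to at most 0.251 CPM over 4.

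Short stretches upstream of the start sites are shown for some members that moved together and for Ifitm2, which did not, so that their letters can be compared. RefSeq promoter windows (GRCm38.p6, 250 bases before to 50 after each start) were given for 33 of the 40 genes. The motif searched was GAAANNGAA, the core of the ISRE, on both strands, and it was present in a window of 12 of the 33 genes (36.4%), against 9.76% of all 27025 genes in the table. The motif TTCNNNGAA, the site of STAT dimers, which is its own reverse complement, was present for 7 of the 33 (21.2%), against 9.55%. Matches of the first and the second motif overlapped in the windows of Ifitm3 and Bst2. Capitals mark the first motif, read on the strand of the gene, and TTCNNTTTC on that strand is a match on the other. Stretches were printed only for genes with a match to the first motif, so its presence in each was fixed by that choice. Cmpk2 and Ifit2, which also moved with most members, had no match to it in their windows. Isg15 and Bst2 are on the minus strand, as are Rsad2 and Ifitm2, and Ifit1 and Ifit3 are on the plus strand. The windows are chr19:34640639-34640938 for Ifit1, chr19:34583279-34583578 for Ifit3, chr4:156200769-156201068 for Isg15, chr8:71537423-71537722 for Bst2, chr12:26456403-26456702 for Rsad2 and chr7:140955912-140956211 for Ifitm2.
Ifit1: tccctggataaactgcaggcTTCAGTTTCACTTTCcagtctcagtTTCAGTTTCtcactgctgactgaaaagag
Ifit3: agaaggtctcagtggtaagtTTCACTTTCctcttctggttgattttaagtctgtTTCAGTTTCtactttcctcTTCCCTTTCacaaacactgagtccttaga
Isg15: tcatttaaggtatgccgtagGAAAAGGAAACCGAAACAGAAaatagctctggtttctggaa
Bst2: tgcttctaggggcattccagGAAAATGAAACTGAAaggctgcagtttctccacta
Rsad2: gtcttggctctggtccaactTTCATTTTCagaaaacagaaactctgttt
Ifitm2: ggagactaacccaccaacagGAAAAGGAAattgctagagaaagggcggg

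In Ifit1 the printed bases run from -129 to -56 relative to the start, in Ifit3 from -175 to -74, in Isg15 from -98 to -38, in Bst2 from -150 to -96, in Rsad2 from -139 to -91 and in Ifitm2 from -66 to -18. Ifit1, Ifit3 and Isg15 each had 3 matches, Bst2 had 2, and Rsad2 and Ifitm2 had 1. Among members over 2-fold higher in pairs 2 and 3, the motif was present for 9 of the 23 with a window (39.1%), and among the rest for 3 of 10 (30%), namely Ifitm2, Ifitm3 and Trim25. A match is a description of letters and not a site, and a window without one says nothing of the bases outside it.

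The IFIT proteins, which bind RNA with foreign ends and stop its translation, had among the widest differences. Ifit3 had 223, 7.36 and 4.08 CPM in the 3 controls, against 330.5, 232 and 285 CPM in the 3 anti-Stat3 samples. Ifit1 had 445, 26.8 and 19.2 against 579.8, 311 and 322 CPM, and Ifit2 had 87.5, 30.7 and 14.6 against 122, 328 and 95.3 CPM, in the same order. In each of the 3 genes, controls 2 and 3 were the low samples. Groups did not overlap for Ifit2 and Ifit3, while for Ifit1 control sample 1 was above anti-Stat3 samples 2 and 3. The pair changes were 0.57, 4.95 and 6.09 for Ifit3, 0.38, 3.53 and 4.06 for Ifit1 and 0.48, 3.41 and 2.70 for Ifit2, and edgeR with the group alone gave 1.86 ± 1.41, 1.31 ± 1.18 and 2.04 ± 0.77 (SE). Ifit2 stood out within pair 2: its level in anti-Stat3 sample 2 was the highest of the 6, where Ifit1 and Ifit3 were highest in anti-Stat3 sample 1. The close copy of Ifit3 that the table lists as I830012O16Rik, named here after its values were seen, had 96.1, 4.02 and 3.06 against 134, 87.2 and 89.7 CPM. The values of single IFIT genes are uncertain, since the handling of reads shared by copies was not given in the sources used here.

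Mx1 and Mx2 encode dynamin-like GTPases that trap viral nucleoproteins or capsids, and Mx1 is truncated in many inbred mouse strains. Mx2 had 65.4, 7.73 and 5.396 CPM across controls 1 to 3 and 78.2, 55.2 and 54.7 CPM across anti-Stat3 samples 1 to 3, so that control sample 1 lay above anti-Stat3 samples 2 and 3. Mx1 had 7.17, 1.38 and 0.24 against 9.47, 15.96 and 16.04 CPM and its groups did not overlap. Control sample 3 rested on 4 counts of Mx1, so the pair change of 5.46 has a wide counting error. In edgeR with the group alone the changes were 2.24 ± 1.03 for Mx1 and 1.26 ± 0.93 for Mx2 (SE).

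Rsad2 and Cmpk2 lie next to each other and act in one pathway: CMPK2 is a mitochondrial nucleotide kinase, and RSAD2 (viperin) turns CTP into a chain terminator of viral RNA synthesis. Rsad2 had 61.01, 2.43 and 1.199 CPM in the 3 controls, against 72.9, 66.5 and 23.6 CPM in the 3 anti-Stat3 samples, and Cmpk2 had 23.5, 1.16 and 1.199 against 30.3, 35.2 and 23.6 CPM. Their pair changes were close to each other, 0.26, 4.70 and 4.16 for Rsad2 and 0.36, 4.77 and 4.16 for Cmpk2. Both genes rested on 20 counts in control sample 3. Ddx60, a helicase-like cofactor of RNA sensing, had 47.96, 6.09 and 4.92 against 65.7, 67.4 and 31.99 CPM. For these 3 genes the anti-Stat3 level was higher in pair 2 than in pair 3, by most in Rsad2.

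Samhd1 had similar levels in its control samples. SAMHD1, a hydrolase of deoxynucleotides that starves retroviral reverse transcription, had 109, 92.8 and 114 CPM across controls 1 to 3 and 155, 278 and 418 CPM across anti-Stat3 samples 1 to 3, with no overlap. Its pair changes were 0.50, 1.58 and 1.88, its change in edgeR with the group alone was 1.43 ± 0.36 (SE, unadjusted p = 0.0065, adjusted p = 1), and it rose by 1.33 ± 0.24 (SE) in DESeq2 with the block (adjusted p = 2.1e-05). Control sample 1 was 1.06 times the mean of the other controls. Its RefSeq window held the STAT dimer motif and no ISRE core. The same held for Ifit2, Ifi35 and Isg20, with control sample 1 at 3.86, 3.89 and 1.18 times the mean of the other controls.

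Trex1 and Adar keep the nucleic acids of the cell itself from being sensed, as a DNA exonuclease and as an adenosine deaminase of double-stranded RNA. Trex1 had 28.1, 10.2 and 20.6 CPM and then 34.98, 20.003 and 46.3 CPM, and Adar had 178, 78.3 and 76.7 against 194, 174 and 160.04 CPM. Both rose in DESeq2 with the block, Trex1 by 0.82 ± 0.22 (adjusted p = 0.015) and Adar by 0.78 ± 0.21 (adjusted p = 0.021; SE), although the groups overlapped. Pnpt1, the mitochondrial polynucleotide phosphorylase, had 74.1, 36.9 and 31.5 against 74.5, 72.3 and 46.1 CPM and did not pass. Isg20, an exonuclease of single-stranded RNA, had the narrowest spread of pair changes among the 8 enzymes (0.17, 0.31 and 0.76), with 16.9, 12.4 and 16.3 CPM across controls 1 to 3 and 19.1, 15.5 and 27.6 CPM across anti-Stat3 samples 1 to 3, and was called in 0 of 21 fits.

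The 6 genes of the ISG15 pathway were each higher in all 3 pairs, and 0 of them passed in any fit to all samples. Isg15, the ubiquitin-like modifier, had 528, 49.1 and 48.4 CPM in the 3 controls, against 647, 334 and 514 CPM in the 3 anti-Stat3 samples. Uba7, its activating enzyme (E1), had 45.9, 19.5 and 18.05 against 60.6, 72.3 and 79.5 CPM, and Ube2l6, its conjugating enzyme (E2), had 129, 17.9 and 22.2 against 156, 87.9 and 123 CPM. For all 3 genes the low samples were controls 2 and 3. Herc6, the main ISG15 ligase (E3) of the mouse, had 75.8, 17.1 and 13.9 against 101, 133 and 105 CPM. Usp18, which removes ISG15 and also blocks signalling at IFNAR, had 333, 17.3 and 15.1 against 389, 133 and 129 CPM. Groups did not overlap for Uba7 and Herc6, whereas for Isg15, Ube2l6 and Usp18 control sample 1 was above anti-Stat3 samples 2 and 3. Usp18 was the member with the largest gap of that kind: anti-Stat3 samples 2 and 3 were on average at 0.393 times control sample 1. In edgeR with the group alone the changes ran from 0.83 ± 1.24 for Usp18 to 1.66 ± 0.66 for Herc6 (SE). Trim25, a ubiquitin ligase that activates the RNA sensor RIG-I, had smaller pair changes, at 148, 95.4 and 86.9 against 151, 169 and 127 CPM and pair changes of 0.032, 0.82 and 0.55. 

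The 4 genes of ADP-ribosylation did not overlap between groups and were higher after anti-Stat3 siRNA, as were 2.45% of all genes. Parp9 and Dtx3l encode partners in one complex, which ubiquitinates histones and viral proteins. Parp9 had 159, 50.6 and 51.6 CPM across controls 1 to 3 and 183, 206 and 211 CPM across anti-Stat3 samples 1 to 3, and Dtx3l had 98.1, 32.4 and 32.9 against 126, 162 and 131 CPM. Their pair changes were 0.21, 2.02 and 2.03 and 0.36, 2.31 and 1.99. Parp12 and Parp14 attach single ADP-ribose units to proteins. Parp12 had 121, 34.6 and 36.5 against 158, 157 and 153 CPM, and Parp14 had 162, 48.002 and 35.5 against 253, 484 and 308 CPM. Parp14 had the largest pair 1 change of all 40 members, 0.64. The edgeR changes with the group alone were 2.09 ± 0.63 for Parp14, 1.36 ± 0.47 for Dtx3l, 1.29 ± 0.51 for Parp12 and 1.20 ± 0.47 for Parp9 (SE), each with an unadjusted p from 0.014 to 0.042 and an adjusted p of 1.

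Factors that act at membranes split. Bst2, or tetherin, which holds budding virions on the cell surface, had 715, 79.8 and 75.4 CPM in the 3 controls, against 963, 535 and 622 CPM in the 3 anti-Stat3 samples, with pair changes of 0.43, 2.74 and 3.04. The IFITM proteins block fusion of viral and endosomal membranes. Ifitm3 had 823, 293 and 394 against 877, 547 and 755 CPM and rose by 0.65 ± 0.19 (SE) in DESeq2 with the block (adjusted p = 0.044). Control sample 1 of Ifitm3 was above anti-Stat3 samples 2 and 3. Ifitm2 had 115, 141 and 174 against 111, 118 and 196 CPM, with pair changes of -0.043, -0.25 and 0.18, so that it was higher in 1 of 3 pairs. Its edgeR change with the group alone was -0.011 ± 0.28 (SE). Ifitm1 was barely detected, with 2, 14 and 10 counts in the controls against 4, 12 and 9 in the anti-Stat3 samples, and no difference could be shown at that depth. The IFITM genes are close relatives, so reads may be shared among them.

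Of the proteins of PML nuclear bodies, which silence viral genomes in the nucleus, Daxx and Pml had small pair changes and Sp100 a larger one. Daxx, a histone chaperone, had 60.9, 36.1 and 38.3 CPM across controls 1 to 3 and 66.9, 67.9 and 77.6 CPM across anti-Stat3 samples 1 to 3, without overlap, and rose by 0.69 ± 0.20 (SE) in DESeq2 with the block (adjusted p = 0.046). Pml, the scaffold, had 149.7, 60.02 and 67.2 against 157, 121 and 115 CPM, and Sp100 had 146, 21.8 and 28.7 against 161, 113 and 126 CPM. In both, control sample 1 was above anti-Stat3 samples 2 and 3. The pair changes were 0.07, 1.01 and 0.77 for Pml and 0.14, 2.37 and 2.13 for Sp100, and neither passed in that fit (adjusted p = 0.088 and 0.31).

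Among the other effectors, Trafd1 and Lgals3bp had the smallest adjusted p in DESeq2 with the block. Trafd1, a zinc-finger protein that dampens Toll-like receptor signalling, had 66.8, 39.3 and 42.2 CPM in the 3 controls, against 84.2, 95.7 and 133 CPM in the 3 anti-Stat3 samples, without overlap. It rose by 1.10 ± 0.24 (SE) in DESeq2 with the block (adjusted p = 9.8e-04). Lgals3bp, a secreted glycoprotein that binds galectins, had 1295, 306 and 395 against 1529.99, 915 and 985 CPM and rose by 1.05 ± 0.23 (SE, adjusted p = 0.0014), although control sample 1 was above anti-Stat3 samples 2 and 3 and the unadjusted p in edgeR with the group alone was 0.225. Epsti1, named for its induction in epithelial cells by stromal fibroblasts, rose by 2.39 ± 0.64 (SE, adjusted p = 0.016), from 23, 8 and 7 counts to 32, 59 and 68 counts. Its counts were thus at most 68 in any sample. Trim21, a cytosolic antibody receptor, had 36.4, 9.79 and 10.01 against 45.6, 47.8 and 54.3 CPM without overlap.

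The remaining effectors had high controls in pair 1 and overlapping groups. Ifi44, a protein linked to slower cell growth, had 496, 26.1 and 19.4 CPM across controls 1 to 3 and 505, 360.4 and 191 CPM across anti-Stat3 samples 1 to 3, so that its pair 1 change was 0.03 and the others 3.78 and 3.29. Rtp4, a zinc-finger protein that binds viral replication RNA, had 115, 17.1 and 14.1 against 123, 107 and 106 CPM. Ifi35, a leucine-zipper partner of NMI, had 90.6, 19.2 and 27.3 against 123, 61.6 and 108 CPM. In these 3 genes the controls of pairs 2 and 3 were again the low samples. Xaf1, which binds and counters the apoptosis inhibitor XIAP, had 108, 15.5 and 24.6 against 124, 85.1 and 108 CPM. Helz2, a helicase and nuclear coactivator, had 214, 106 and 99.9 against 219, 219 and 144 CPM. None of these 5 passed in DESeq2 with the block.

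Ifi27 went the other way. The gene encodes a small hydrophobic protein of the ISG12 family. It had 70.9, 139 and 152 CPM in the 3 controls, against 62.7, 55.7 and 87.3 CPM in the 3 anti-Stat3 samples: control samples 2 and 3, the low samples of the other members, were here the highest of the 6. Its pair changes were -0.18, -1.32 and -0.80, it fell by 0.77 on the log2 scale (SE 0.20) in DESeq2 with the block (adjusted p = 0.027), and in edgeR with the group alone its change was -0.82 ± 0.33 (SE, unadjusted p = 0.046, adjusted p = 1). Over the 6 samples its log2 CPM correlated with the mean of all members at r = -0.92. Its relatives Ifi27l2a and Ifi27l2b, named after their values were seen, were higher in all 3 pairs, as most members were. Ifi27l2a had 60.6, 4.604 and 10.97 against 101, 40.1 and 67.98 CPM. Ifi27l2b had 61.6, 1.75 and 7.55 against 71.1, 11.1 and 20.8 CPM, so that anti-Stat3 samples 2 and 3 stayed well below control sample 1.

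The members were not high in the same proportion in the 4 high samples. Relative to control sample 1, both anti-Stat3 samples 2 and 3 were above it for 17 of the 40 members and both below it for 15, where the shares over all genes were 29.8% and 30.2%. Both counts were only moderately above these shares, and no trait of the members is read from them. At one end were Usp18, at 0.393 times control sample 1 on average, Ifi44 at 0.529 times, Rsad2 at 0.651 times and Ifit1 at 0.712 times. At the other were Samhd1 at 3.12 times, Epsti1 at 2.78 times, Parp14 at 2.38 times, Mx1 at 2.21 times and Ifit2 at 2.02 times. All 4 ADP-ribosylation genes were above control sample 1 in both samples, which follows from the lack of overlap given above. This compares single libraries of different pairs, so it has no replicate check, and the pairs differ in macrophage transcripts as given above.

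**Figure D3:**
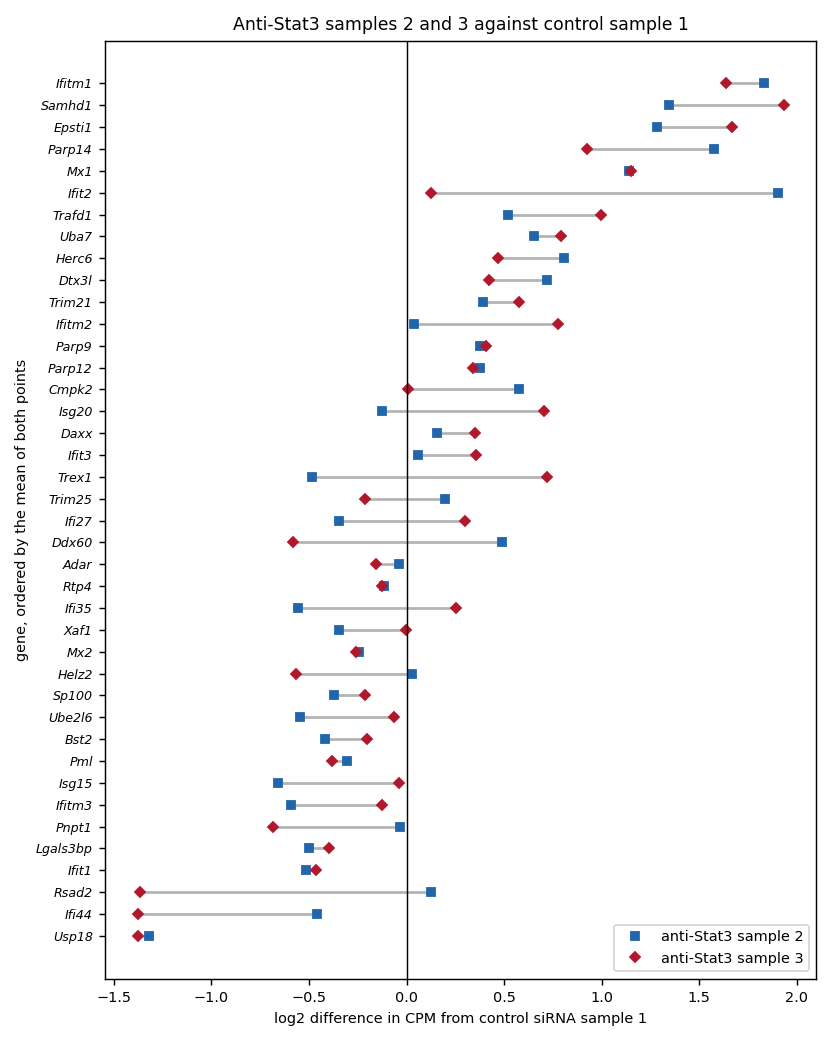
Log2 difference in CPM of anti-Stat3 samples 2 and 3 (points) from control sample 1, for the 40 genes ordered by the mean of both points. The order runs from Usp18, Ifi44 and Rsad2 at the lower end to Epsti1, Samhd1 and the barely detected Ifitm1 at the upper end.

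Upstream of these effectors, the transcript of the ligand was detected in pair 1 and not in the others. The pathway list held 40 genes of interferon induction and response, 2 of them also members, and 32 were tested. Ifnb1, interferon beta, had 1.96 CPM in control sample 1 (29 counts) and 1.76 CPM in anti-Stat3 sample 1 (28 counts). It had 0 counts in the 4 samples of pairs 2 and 3, which allows levels of up to 0.159, 0.18, 0.202 and 0.23 CPM. The 6 other type I ligands of the list, which are alpha, kappa or epsilon genes, and Ifng had at most 1 count in any sample. The pair with Ifnb1 transcripts was also the pair in which the effectors were high with control siRNA and little changed. It was the pair with few macrophage transcripts as well, so these differences cannot be told apart. The part of Ifnb1 in the result was not tested.

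The receptors and kinases had small changes within the pairs. Ifnar1 had 98.7, 109.5 and 103 CPM across controls 1 to 3 and 98.5, 100.02 and 92.1 CPM across anti-Stat3 samples 1 to 3, and the pair changes of Ifnar1, Ifnar2, Ifngr1, Ifngr2, Jak1, Jak2 and Tyk2 lay between -0.36 and 0.38. Ifngr2, a chain of the interferon gamma receptor, was nonetheless higher in pair 1, with 101, 54.3 and 53.1 against 102, 63.7 and 62.5 CPM. The transcription factors differed among themselves. Irf3, which is activated by nucleic acid sensing, had 26.1, 26.2 and 28.96 against 26.7, 26.3 and 36.8 CPM, and Irf8, a factor of myeloid cells, had 0.406, 4.97 and 8.03 against 0.188, 6.803 and 12.8 CPM, low in pair 1. The controls of pairs 2 and 3 were the low samples for others. Stat2 had 201, 94.2 and 112 against 249.98, 380.1 and 453 CPM, and its groups did not overlap. Irf7, which amplifies interferon alpha transcription, had 392, 19.7 and 18.6 against 524, 211 and 186 CPM, with control sample 1 above anti-Stat3 samples 2 and 3. Irf1, which interferon gamma and type I interferon both induce, had 45.2, 28.3 and 30.04 against 60.9, 181 and 227 CPM, with control sample 1 well below them. Dhx58, an RNA sensor, had 50.7, 12.5 and 14.03 against 71.3, 59.1 and 70.7 CPM.

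Over the 32 tested pathway genes, edgeR with the group alone called 0, and edgeR with the block called 1, Socs3, as lower (0.0376% of all genes). DESeq2 with the block called Socs1 and Tlr3 higher and Socs3 lower. Socs1, an inhibitor of JAK kinases downstream of interferon receptors, had 3.58, 3.18 and 8.33 against 5.27, 9.03 and 32.6 CPM, and Tlr3, a sensor of double-stranded RNA, had 49.6, 26.04 and 12.6 against 61.8, 66.1 and 38.9 CPM. Socs3, an inhibitor of signalling through the interleukin 6 receptor, had 25.2, 85.9 and 156 against 10.9, 18.6 and 38.1 CPM, lower in each of the 3 pairs. DESeq2 with the group alone called Irf1 higher (0.12% of all genes). Irf3, Irf7, Irf8, Ifnb1 and the receptors were named after their values were seen.

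**Figure D4:**
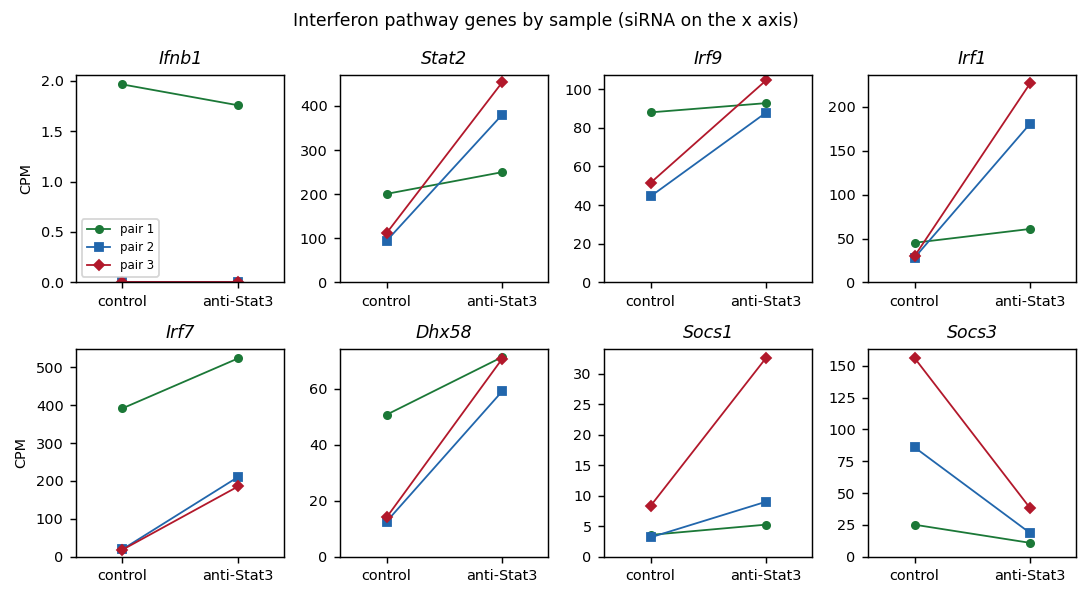
CPM of 8 interferon pathway genes with control and anti-Stat3 siRNA, with a line for each pair and each y axis starting at 0. Ifnb1 is at 0 in pairs 2 and 3, Stat2 and Irf1 reach their highest levels in anti-Stat3 samples 2 and 3, and Irf7 is highest in pair 1.

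Set per kilobase of annotated exon (GENCODE vM21), the effectors spanned a wide range of levels. Averaged over the 6 samples, Ifitm3 had 907 CPM per kilobase, Bst2 629, Isg15 468 and Lgals3bp 388. The lowest were Ifitm1 at 0.491, Epsti1 at 0.976, Mx1 at 2.47 and Ddx60 at 5.70 CPM per kilobase. Low and high genes were both found among those with large pair changes, such as Mx1 and Isg15.

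Outside the list, 10 genes followed the mean z-score of the members closest over the 6 samples, by Pearson correlation of log2 CPM, which ranged from 0.992 to 0.999. They included Mitd1, Gbp3, Oasl2, Dhx58, B2m, Pydc3, Irgm1, Phf11b and Ly6e. Gbp3 had 212, 15.03 and 15.9 CPM in the 3 controls, against 267, 258 and 266 CPM in the 3 anti-Stat3 samples. B2m, the light chain of MHC class I, had 1481, 449.6 and 459.5 CPM and then 1728, 1703 and 1621 CPM. With 6 samples and 2 that are low, many genes can reach such a correlation. Within the list, Ifi27, Ifitm1 and Ifitm2 correlated negatively with the members' mean, at -0.92, -0.35 and -0.32, and Isg20 and Samhd1 followed it least among the others, at 0.64 and 0.68.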

How the data were processed

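Poly(A) RNA of TRIzol extracts went into TruSeq libraries, per the labels' protocols. Per the submitters' processing notes, TopHat2 2.0.10 and HTSeq were used with mm9. The authors deposited 1 table of raw counts per gene symbol, with 24015 symbols and 6 columns, of which 0 were left unused. The strand setting of the counting was not given in the sources used here. Column names write "sh" where sample titles write "si" and were matched by group and number.

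The main test was edgeR 4.0.16's quasi-likelihood F test, run in R 4.3.3 (TMM scaling, filterByExpr at 10 counts and 15 in total, the group as the only term, Benjamini-Hochberg adjustment over all 13284 genes, threshold 0.05). DESeq2 1.42.0, limma-voom (limma 3.58.1), a replicate block and samples or pairs left out were alternatives. On simulated data, edgeR, DESeq2 and limma-voom were run with the group alone and with the replicate block. The other fits were not tested in this way. Whether replicates are of separate cultures or animals is not labelled, so the p-values measure only a spread between samples that may be technical. The smallest two-sided p of an exact permutation test of 3 against 3 samples is 0.1, and none was used.

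The titles number the samples 1 to 3 in both groups, and across genes the departures of same-numbered samples from their group means had correlations of 0.834, 0.818 and 0.831, so the numbers were taken to pair the samples. What a number stands for was not given in the sources used here. A count of 0 allows up to 3 counts of the total, which covers counting error only.

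The members, lists and tests were chosen with earlier results of these data known. Values in every sample were given for up to 4 members of each role group with the smallest p in the blocked edgeR fit, for any member called in any fit and for members not moving with most, which names all of the 40 but Isg20, and for the 6 pathway genes with the smallest p. Isg20 was added. Promoter sequences are RefSeq's on GRCm38.p6, and exon lengths GENCODE vM21's, a build other than that of the counts, used for no coordinate of the counts. Some genes of these lists are not reported here.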

Additional observations from a re-analysis of the deposited data

How the results depend on the processing

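The main test, edgeR with the group alone, called 0 members, 0 of all genes and 0 pathway genes. Blocked DESeq2 called 9 members, 220 of all genes and 3 pathway genes. With the replicate block, edgeR and limma-voom each called 8 of all genes, 1 pathway gene and 0 members. DESeq2 with the group alone called 17 of all genes, 1 pathway gene and 0 members. The other settings (DESeq2 size factors in edgeR, no filter on low counts, limma-voom with the group alone and pair 3 as a batch) called 0 of each. With 1 sample left out of this test, the counts ran from 0 to 14 for members, 0 to 40 for all genes and 0 to 4 for pathway genes, highest without control sample 1. With 1 pair left out of the replicate block, they ran in edgeR from 0 to 37, 0 to 703 and 0 to 14, and in DESeq2 from 0 to 37, 14 to 432 and 1 to 14, all highest without pair 1. Without pair 3, blocked DESeq2 called 20 of all genes. The median log2 change of the members, 1.16 with all samples, lay between 0.78 and 2.22 with samples or pairs left out. With samples left out, Ifitm1 (0.22 with all samples) ran from -0.21, without control sample 1, to 0.63, and was -0.11 without anti-Stat3 sample 2. Ifitm2 (-0.011) ran from -0.32 to 0.16, above 0 without control sample 3 or anti-Stat3 sample 1 or 2 (0.14 and 0.097), and was 0.0645 in edgeR and 0.0651 in DESeq2 with the block and without pair 2. Both were uncalled throughout, and the cause was not tested. A prior count of 0.5 in place of 2 moved no pair median by more than the spread between pairs. Depth limits Ifitm1, Epsti1 and Mx1, which rest on few counts.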
